A study of Mus musculus with 3 samples.

Results

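The genes described here encode the soluble factors that start and extend protein synthesis on cytosolic ribosomes, with their direct inhibitors and modifying enzymes. They were taken by name as the protein-coding genes of the GENCODE M21 annotation whose symbol begins with Eif1 to Eif6 or with Eef1 or Eef2. The eIF2 kinases (Eif2ak genes) and the X and Y copies of eIF2 gamma (Eif2s3x and Eif2s3y) were left out. This gave 62 genes of 55536 annotated genes, 49 with Eif and 13 with Eef symbols. The rule uses the symbol and the gene class, and no measured value.

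RNA came from effector memory CD4 T cells, helper T cells that have met antigen and patrol tissues, of 1 male adult mouse aged 5 months. Its strain, B6.SJL-Ptprca Pepcb/BoyJ, is a C57BL/6 line that carries the CD45.1 form of Ptprc. The labels name no treatment, and the sources used here do not describe the gate by which the cells were obtained. PolyA-selected RNA from this 1 biosample was sequenced as 3 libraries, labelled technical replicates 1, 2 and 3, so there is 1 group and no comparison of conditions. Each SD below is the spread between these libraries, and each test compares libraries, not animals or treatments.

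Translation initiation begins when the small ribosomal subunit, held by eIF1, eIF1A, eIF3 and eIF5, receives the initiator tRNA from eIF2 and is brought to a capped mRNA by eIF4F, the complex of the cap-binding eIF4E, the scaffold eIF4G and the helicase eIF4A. eIF2B reloads eIF2 with GTP, and the 4E-binding proteins block eIF4E until mTOR phosphorylates them. Elongation then needs eEF1A, which delivers aminoacyl-tRNAs, its exchange factor eEF1B, and eEF2, which moves the ribosome along. In T cells these steps are known to be stepped up when a resting cell is activated.

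Several elongation factor mRNAs belong to the class that starts with a terminal oligopyrimidine (TOP) tract, a C followed by a run of C or T bases at the cap. The start windows of 5 genes are shown, all with low ratios of library 1 to the other libraries below. They are not the 5 lowest: Eef1g, Eif4g3 and Eif3i, left out here, had lower ratios than Eef1b2. The members found with such a tract at a start, Eif3f and Eef1b2, are both among the 5, so the 5 give no share. The first 4 are RefSeq windows on GRCm38.p6, with 10 bases before the annotated start and 15 from it, and the last is the beginning of the GENCODE M21 transcript Eef1b2-209. Capitals mark the C or T tract where it runs from a C at the annotated start.
Eif3f (chr7:108934405-108934429, plus strand): tctaggctctCTCTCTTTCTCggca
Eef1a1 (chr9:78481710-78481734, minus strand): ctccgccctcttcccgagggtgggg
Eef2 (chr10:81176621-81176645, plus strand): aaggccgggcgttgacgtcagcggt
Eif4b (chr15:102073763-102073787, plus strand): tcccgtcggaCgccgcgccaccccc
Eef1b2-209 (chromosome 1, plus strand): CTTTTTTTCCCTCagcgctggccgc
A TOP-like start, read on the gene's own strand as a C followed by at least 4 C or T bases, was found exactly at the RefSeq start in 1 of the 44 detected members with a window, Eif3f, or 2.27%. The same letters stood at 2.51% of all 32851 RefSeq windows. Counted by gene, as for the members, they stood in 2.95% of the 7910 detected protein-coding genes with a window. Among detected ribosomal protein genes it was 23.8% of the 63 with a window. With the leading GENCODE transcript the members were Eif3f and Eef1b2, 2 of 58. The RefSeq window of Eef1b2 has no such tract at its start. The members' share was thus near that of all starts, and a window with no match says only that these letters are not at this annotated base.

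Nearly all members were present, and as a group they were abundant. A gene was called detected at a level of at least 1 TPM (transcripts per 1e6 transcripts, a length-corrected share of the library) in each library. By that rule 58 of the 62 members were detected, beside 11694 genes in all, 9900 of them protein-coding. The detected members had a median of the mean TPM of 86.95, against 28.9 over detected protein-coding genes. A mean TPM above 100 was reached by 27 members, or 46.6% of those detected, and by 18.04% of detected protein-coding genes. In bulk RNA, fewer cells with a transcript and less of it per cell cannot be told apart.

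The libraries held 17474991, 15303615 and 16882311 expected counts on annotated genes in libraries 1, 2 and 3. Library 1 stood apart. The common coefficient of variation from edgeR was 0.334 over the 3 libraries and 0.0724 without library 1. Libraries 2 and 3 differed in 16.7% of genes beyond counting error, by a chi-square test of expected counts. All 7 markers listed for CD4 T cells were detected, with summed TPM of 11553, 8779 and 8865 in libraries 1, 2 and 3. Most of each sum came from Trac and Trbc2, the latter with 2272, 2301 and 2515 TPM, so it says little about Cd4. The 7 markers did not move together. Trac was called higher in library 1 by the rule given below, with 6922 TPM against 3647 and 3493 TPM. Cd3e, Cd4 and Cd40lg were called lower, Cd4 with 269 TPM against 541 and 523 TPM. Of the markers of other cells only Cd8b1, at 5.65, 8.10 and 10.8 TPM, and Klrb1c, at 9.27, 9.03 and 7.74 TPM, were detected. None of 5 B cell, 4 myeloid or 2 erythroid markers was. The B cell markers summed to 1.56, 3.24 and 2.37 TPM, the myeloid markers to 2.61, 2.04 and 2.52 TPM, and the erythroid markers to 1.09, 7.02 and 1.28 TPM. Their part in the results below was not tested.

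Members differed between the libraries in both directions. In Pearson's chi-square test of expected counts against library totals, adjusted by Benjamini-Hochberg over all genes with at least 30 counts, 55 of 59 tested members passed the threshold of 0.05. The share over all tested genes was 75.8%, so most genes did the same. The 4 that did not pass were Eif4ebp3, Eif1ad, Eif4enif1 and Eif2a. When the statistic was divided by the median overdispersion of all genes, 19.9, the test was passed by 28 of 59 members, against 21.6% of all genes. Between libraries 2 and 3 alone 20 of 59 members passed, against 16.7% of all genes. A chi-square test of counts detects smaller differences in genes with more counts. Detected members were the more abundant, with a median of the mean TPM of 86.95 against 24.1 over all detected genes. Members and other genes were not compared at matched counts, so these shares do not show that members varied more. The same limit holds for the shares passing given below.

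A member was called lower or higher in library 1 when its TPM lay below or above both other libraries and differed at least 1.5-fold from their geometric mean, with 1 added to each TPM. This is a description with no test. By that rule 17 of 58 detected members, 29.3%, were lower in library 1, against 23.9% of all detected genes, and 15 members, 25.9%, were higher, against 17.9%. Across members the log2 ratio of library 1 to the others had a median of 0.07, against −0.05 over all detected genes, while the median size of the ratio, sign aside, was 0.62 in members and 0.48 in all. Libraries 2 and 3 lay close together, with a median log2 ratio of 0.12 in size. The split depended on the scaling: with counts scaled by TMM 11 members were lower and 19 higher, and the median of all detected genes moved from −0.05 to 0.08. The median of the members stood 0.12 above that of all genes by TPM and 0.19 above it by TMM-scaled counts. All 32 called members kept their sign under TMM and under DESeq2 size factors, and 25 kept the call under each. The 7 whose call was lost under both were Eif4a2, Eif3k, Eif3d, Eif3j2, Eef1d, Eif4ebp2 and Eef2kmt.

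**Figure D1:**
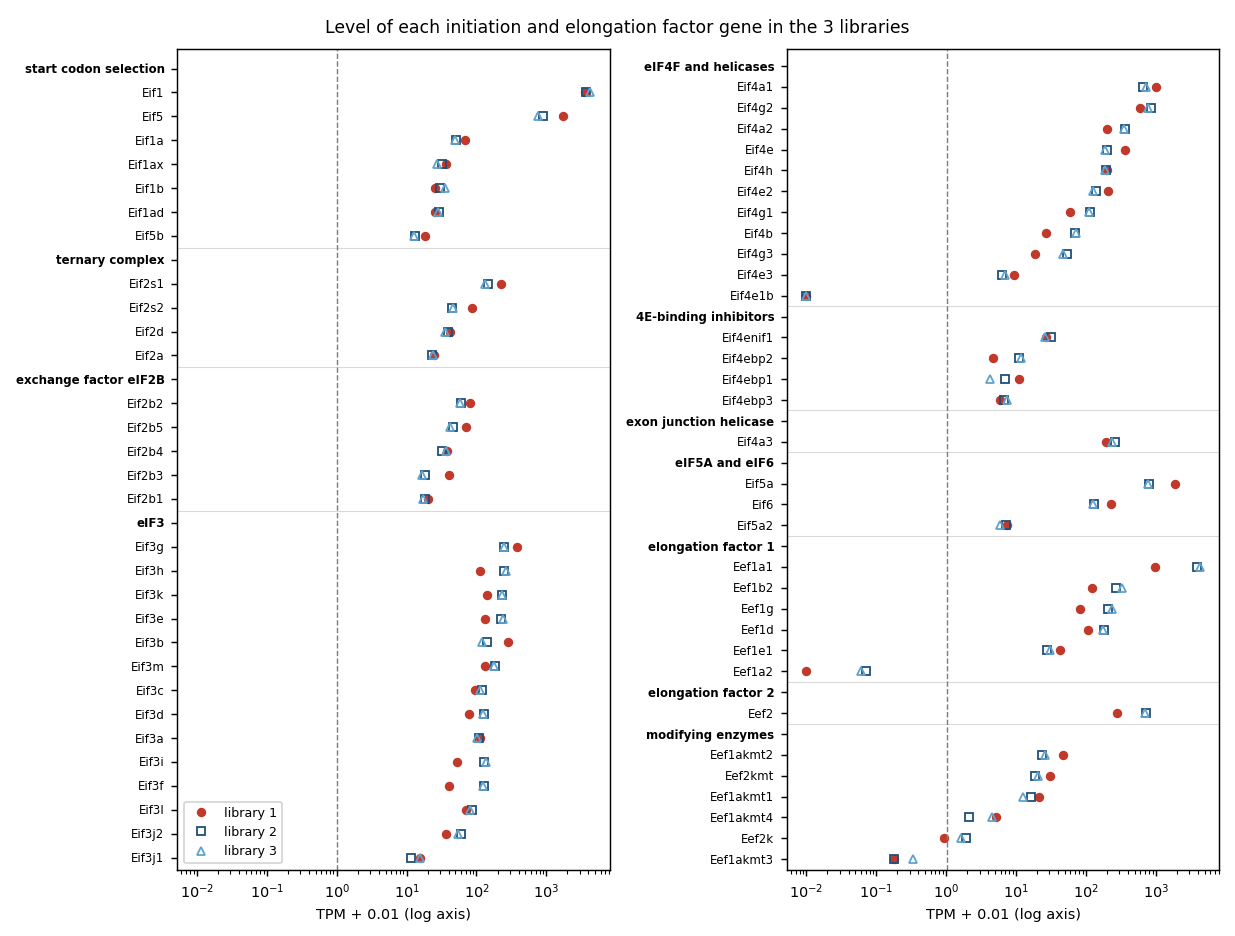
TPM of each of the 62 genes in libraries 1, 2 and 3 on a log axis, with 0.01 added so that a value of 0 can be drawn, grouped by role. The dashed line marks a TPM of 1. All but 4 members lie above it in each library, and the library 1 points lie to the left for Eef1a1, Eef1b2, Eef1g, Eef1d and Eef2 and to the right for Eif5, Eif5a and Eif4e.

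Among the factors that select the start codon, Eif1 had the highest mean TPM of all members, though Eef1a1 stood above it in libraries 2 and 3. Eif1 (ENSMUSG00000035530.13, chromosome 11, 100319885 to 100322096, plus strand, GRCm38), which keeps the scanning ribosome from settling on a wrong start, had 3554, 3748 and 4172 TPM in libraries 1, 2 and 3. Its mean was 3825 ± 316 TPM (SD, n = 3), 13th among protein-coding genes. The coefficient of variation over the 3 libraries was 8.26%, and the log2 ratio of library 1 was −0.15. In its leading transcript 62.6% of the 50-base windows also occur in other genes, so the level depends on how reads were divided. The M4 gene table held 276, 349 and 396 Eif1 counts, 1.16%, 1.66% and 1.48% of the M21 counts.

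Most of the Eif1 level came from transcripts annotated as noncoding. Eif1-202, a processed transcript of 383 bases, held 50.03%, 47.1% and 47.1% of the gene's TPM in libraries 1, 2 and 3. The coding Eif1-201, of 1322 bases, held 28.3% ± 0.79 of TPM (SD, n = 3) but 57.6% of the gene's counts, since TPM divides by length. Coding transcripts alone summed to 1119, 1251 and 1330 TPM.

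Eif5 and Eif5b, which act in succession at the start codon, differed by over an order of magnitude in level. Eif5, which makes eIF2 hydrolyse its GTP, had 1733 TPM in library 1 against 909 and 769 TPM in libraries 2 and 3, a log2 ratio of 1.05 that was 0.22 in the M4 gene table. It was the only member of this role group called in either direction. Eif5b, which joins the ribosomal subunits, had 18.4, 13.4 and 12.9 TPM, and 74.7% of that was assigned on average to retained-intron transcripts, so its coding transcripts summed to only 4.17, 4.09 and 2.94 TPM.

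By TPM the copies of eIF1 and eIF1A were unequal in the same way in all libraries. Eif1b had 25.1, 29.6 and 35.3 TPM, with a log2 level of Eif1 over Eif1b of 6.96 ± 0.12 (SD, n = 3). Eif1a, on chromosome 18, had 69.7, 51.2 and 49.8 TPM, and its X-linked copy Eif1ax 36.5, 32.2 and 27.2 TPM. Eif1a was the higher of the pair by TPM in each library, by 0.81 ± 0.13 on the log2 scale. In the M4 gene table, not corrected for length, Eif1a was the lower. It had 263, 172 and 182 counts there, against 343, 243 and 287 for Eif1ax. Eif1ad had 25.4, 29.0 and 28.2 TPM; 15.1% of the 50-base windows of its leading transcript also occur in the neighbouring gene Banf1, so its value is uncertain.

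The genes of eIF2 alpha and beta, Eif2a, Eif2d and the exchange factor eIF2B make up 9 members. Of these 4 were called higher in library 1, 5 were not called and none was lower, where 17.9% of all detected genes were higher. Eif2s1, the alpha subunit of eIF2 whose phosphorylation curbs initiation, had 221 TPM in library 1 against 146 and 134 TPM in libraries 2 and 3. Eif2s2, the beta subunit, had 86.8 TPM against 44.2 and 45.7 TPM. Both were called higher, though the M4 ratio of Eif2s1, 0.52, was below the limit. The gamma subunit copies, which are not members, did not follow: Eif2s3x had 23.5, 34.4 and 35.5 TPM and Eif2s3y 114, 141 and 138 TPM, with neither called. Eif2a and Eif2d, which can deliver the initiator tRNA without eIF2, differed little, with Eif2a at 24.4, 23.2 and 24.1 TPM and Eif2d at 42.5, 38.9 and 35.6 TPM.

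All 5 eIF2B subunits were detected, and their sum was 251 TPM in library 1 against 177 and 169.6 TPM in libraries 2 and 3. Eif2b3, a subunit of the catalytic part, had 39.9 TPM in library 1 against 18.5 and 16.8 TPM, a log2 ratio of 1.14. Eif2b5, the catalytic subunit, had 71.5 TPM against 46.3 and 41.5 TPM, and both were called higher. The most abundant, Eif2b2, had 81.9, 61.0 and 57.3 TPM. Eif2b4, with a log2 ratio of 0.11, and Eif2b1, with 0.17, were nearly level. The mean levels of the 5 genes spanned 18.4 to 66.7 TPM.

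The 14 genes of eIF3, the scaffold that holds initiation factors on the small subunit, split by subunit. All were detected, all 14 passed the chi-square test, 7 were called lower in library 1 and 2 higher. Over all genes 75.8% of those tested passed, and 23.9% and 17.9% of those detected were lower and higher. Their summed level differed less, at 1688 TPM in library 1 against 2043 and 2041 TPM in libraries 2 and 3. The lowest ratio was that of Eif3f, with 41.1 TPM in library 1 against 129 and 124 TPM, a log2 ratio of −1.59. Eif3i had 53.4 TPM against 126 and 138 TPM, and Eif3h 112 TPM against 249 and 268 TPM. In all 3 genes libraries 2 and 3 lay close together, more than 2-fold above library 1. Eif3e, Eif3k and Eif3d were also lower, with log2 ratios of −0.81, −0.70 and −0.67. Eif3m, Eif3c and Eif3l, at −0.44, −0.28 and −0.23, were not called. In the M4 gene table Eif3f, Eif3i and Eif3h kept the call, with −1.02, −0.84 and −0.63. Eif3e, Eif3k and Eif3d lost it there, with −0.34, −0.30 and −0.41.

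Eif3b and Eif3g went the other way. Eif3b, a core subunit that carries an RNA recognition motif, had 279 TPM in library 1 against 141 and 122 TPM in libraries 2 and 3, a log2 ratio of 1.09. Eif3g, the most abundant eIF3 gene, had 384 TPM against 244 and 250.02 TPM. The M4 ratio of Eif3b, 0.79, kept the call, while that of Eif3g, 0.36, was below the limit. The large core subunit Eif3a was level, at 113, 109 and 103 TPM. Eif3b and Eif3i, whose proteins bind each other in the complex, thus had log2 ratios of 1.09 and −1.29.

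The eIF3j copies cannot be separated with confidence. Eif3j2 had 37.2, 59.3 and 54.6 TPM and Eif3j1 15.3, 11.5 and 15.4 TPM, but 91.8% of the 50-base windows of the leading Eif3j2 transcript occur in other genes, nearly all of them in Eif3j1. The log2 level of Eif3j1 over Eif3j2 was −1.75 ± 0.52 (SD, n = 3). In the separate M4 gene table Eif3j2 had 2, 0 and 2 counts, and its library 1 ratio of −0.60 became 0.25.

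**Figure D2:**
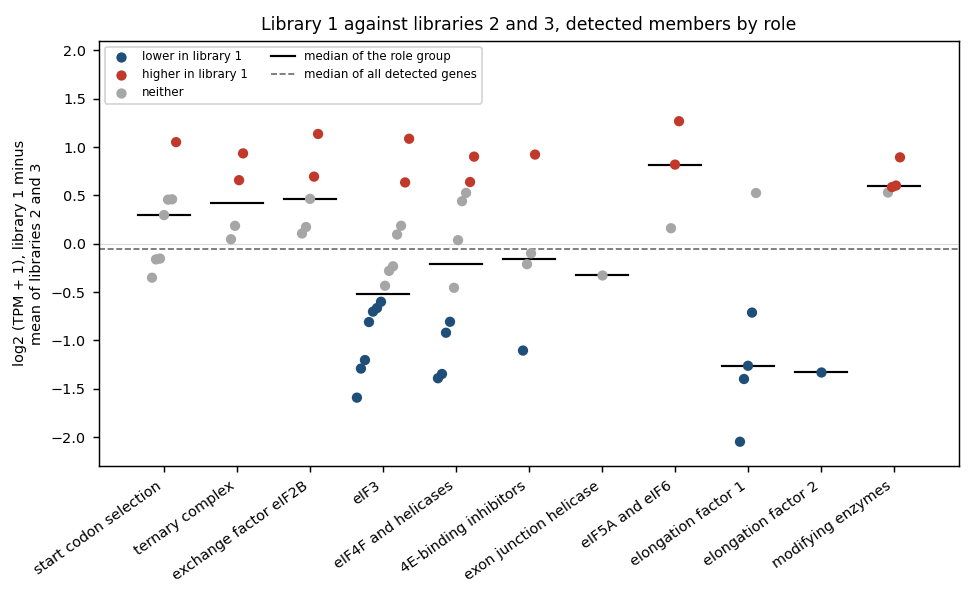
Log2 ratio of library 1 to libraries 2 and 3, on TPM + 1, for each of the 58 detected members by role. Bars are group medians and the dashed line is the median of all detected genes, −0.05. Elongation factor 1 has its median at −1.26 and eIF3 at −0.52, while the eIF2B points all lie above 0.

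Within eIF4F and its helpers, the helicase and scaffold copies kept their order by TPM in every library, while the distance between them varied. Eif4a1, the main helicase gene, had 995, 655 and 728 TPM, and its copy Eif4a2 203, 366 and 346 TPM. Eif4a1 was the higher in each library, by 1.40 ± 0.78 on the log2 scale, with a difference of 2.29 in library 1 against 0.84 and 1.07. Eif4a1 shares 65.3% of the windows of its leading transcript with other genes, chiefly the pseudogene Eif4a-ps4, which was itself given 265, 146 and 163 TPM. The Eif4a1 value therefore depends on how reads were divided. In the M4 gene table Eif4a1 had 339, 294 and 351 counts, below Eif4a2 with 922, 1178 and 1294.

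Eif4g2, a scaffold that lacks the eIF4E-binding site and supports other forms of initiation, was the most abundant scaffold, with 589, 840.4 and 777 TPM. Eif4g1, the main cap-dependent scaffold, had 59.1 TPM in library 1 against 115 and 111 TPM, and Eif4g3 had 18.6 TPM against 53.8 and 47.4 TPM. Both were called lower. The order Eif4g2, Eif4g1, Eif4g3 held in each library, with Eif4g1 below Eif4g2 by a log2 difference of −2.98 ± 0.27 (SD, n = 3).

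The cap-binding gene Eif4e had 367 TPM in library 1 against 202 and 189 TPM in libraries 2 and 3, and was called higher, as was Eif4e2, a cap-binding repressor, at 205 TPM against 137 and 126 TPM. The M4 ratio of Eif4e, 0.67, kept the call, while that of Eif4e2, 0.54, was below the limit. Eif4e3 had 9.34, 6.32 and 6.94 TPM. By TPM Eif4e exceeded Eif4e2 by 0.66 ± 0.15 and Eif4e3 by 4.84 ± 0.29 on the log2 scale (SD, n = 3). In the M4 gene table Eif4e had 345, 224 and 212 counts, below Eif4e2 with 1047, 709 and 743. Eif4e1b, the copy known from oocytes, had no count in any library, which allows up to 0.302, 0.366 and 0.314 TPM at a floor of 3 counts per library.

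The helicase cofactors parted. Eif4b had 27.2 TPM in library 1 against 69.2 and 72.4 TPM in libraries 2 and 3, a log2 ratio of −1.35, and was called lower. Eif4h, which shares its role, was level at 197, 194 and 189.9 TPM, with a CV of 1.79%. Eif4a3, a helicase of the same family that works in the exon junction complex, had 196, 256 and 235 TPM and was not called.

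The inhibitors of eIF4E were scarce beside it. The 3 genes of the 4E-binding proteins had mean levels of 6.60 to 9.08 TPM, against 253 ± 98.7 TPM for Eif4e (SD, n = 3). Eif4ebp1 had 11.2 TPM in library 1 against 6.87 and 4.24 TPM, on 114, 49 and 48 counts. Eif4ebp2 had 4.70 TPM in library 1 against 10.98 and 11.6 TPM, a log2 ratio of −1.11 that was −0.48 with TMM-scaled counts. Their order by TPM changed between libraries: the log2 level of Eif4ebp1 over Eif4ebp2 was 1.09 in library 1 against −0.61 and −1.26 in libraries 2 and 3, and that of Eif4ebp2 over Eif4ebp3 was −0.27 against 0.65 and 0.60. The other pairs, 10 of the 12 paralogue pairs compared, kept 1 sign by TPM in every library. By expected counts, not corrected for length, all 12 did, with 223, 284 and 358 counts for Eif4ebp2, above both other genes in each library. In the M4 gene table, also not corrected for length, some of the 10 had the other order in every library. These were Eif4a1 and Eif4a2, Eif1a and Eif1ax, Eif4e and Eif4e2, and Eif3j1 and Eif3j2. The rest of the 10 kept their order.

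The transcripts behind these low levels differed too. In Eif4ebp1 83.3% ± 12.04 of TPM was assigned to Eif4ebp1-202, a noncoding transcript, leaving coding levels of 1.87, 0.31 and 1.22 TPM. By TPM Eif4ebp2 was led by Eif4ebp2-201 at 69.6% in library 1, but by the shorter Eif4ebp2-202 at 64.6% and 62.9% in libraries 2 and 3. By counts Eif4ebp2-201 led throughout, with 90.5%, 69.6% and 71.1%. Eif4ebp3 had 5.87, 6.62 and 7.31 TPM and shares 65.5% of its windows with the overlapping gene AC115631.1. Eif4enif1, whose protein carries eIF4E into the nucleus, was the highest of the group, at 26.7, 32.0 and 25.6 TPM.

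Eif5a, a factor that relieves ribosomes stalled at stretches such as prolines, had the highest library 1 ratio of all members. It had 1889 TPM in library 1 against 785 and 784 TPM in libraries 2 and 3, a log2 ratio of 1.27 and a mean of 1152 ± 638 TPM (SD, n = 3), though the M4 gene table gave a ratio of 0.17. Its copy Eif5a2 had 7.33, 7.15 and 5.82 TPM, lower than Eif5a by a log2 difference of 7.09 ± 0.65. Eif6, which keeps free large subunits from joining, had 226 TPM in library 1 against 128 and 127 TPM and was called higher.

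The elongation factors proper, Eef1a1, Eef1b2, Eef1g, Eef1d and Eef2, were all called lower in library 1 by TPM. Of the other Eef genes 3 modifying enzymes were called higher. Over all detected genes 23.9% were lower and 17.9% higher. Eef1d lost the call with TMM-scaled counts, at −0.52, and in the M4 gene table, at −0.31. So did Eef2kmt, at 0.46 and 0.53. Genes with Eef symbols together took 0.172% of TPM in library 1 against 0.535% and 0.582% in libraries 2 and 3, while genes with Eif symbols took 1.29% against 1.12% and 1.14%. Without Eef1a1, whose log2 ratio was only −0.08 in the M4 gene table, the other 12 Eef genes took 0.0745% against 0.148% and 0.155%. Together the members took 1.61% ± 0.138 of TPM (SD, n = 3), and without Eef1a1 1.31% ± 0.0458. In the same libraries 79 of the 84 detected ribosomal protein genes were called lower in library 1 by TPM. Their M4 ratios and shared windows were not examined.

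**Figure D3:**
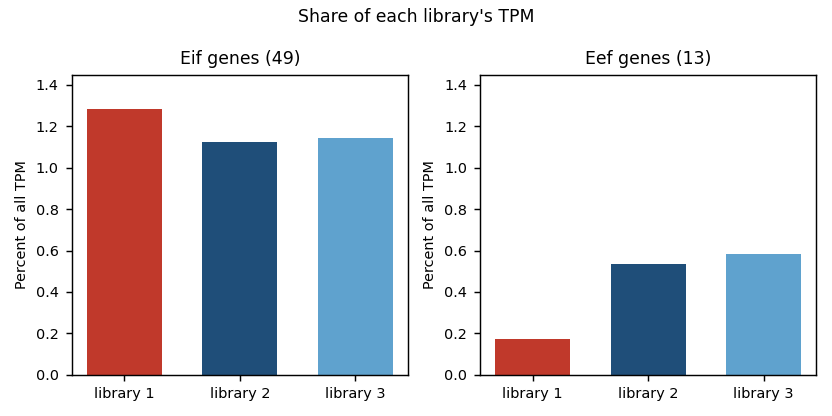
Percent of each library's TPM held by the 49 Eif genes (left) and the 13 Eef genes (right), 1 bar per library from a baseline of 0. The Eef bar of library 1 stands at 0.172% against 0.535% and 0.582%, and the Eif bars at 1.29%, 1.12% and 1.14%.

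Eef1a1 (ENSMUSG00000037742.14, chromosome 9, 78478449 to 78489151, minus strand), which brings aminoacyl-tRNA to the ribosome, had 974 TPM in library 1 against 3839.8 and 4240.5 TPM in libraries 2 and 3. Its log2 ratio of −2.05 was the lowest of all members, and it ranked 5th among members in library 1 and 1st in both others. Its copy Eef1a2, known from neurons and muscle, had 0, 1 and 1 counts, or 0, 0.06 and 0.05 TPM, and no fold between the copies is given at that depth. In the leading Eef1a1 transcript 60.6% of the 50-base windows also occur in other genes, the 5 that share most being processed pseudogenes at under 10 TPM each, and the M4 gene table gave a log2 ratio of −0.08.

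The 3 genes of the eEF1B exchange complex, Eef1b2, Eef1g and Eef1d, were all called lower in library 1, as Eef1a1 was. Eef1b2 had 124 TPM in library 1 against 271 and 328 TPM, Eef1g, with 64.3% of windows shared, 82.9 TPM against 207 and 234 TPM, and Eef1d 108 TPM against 179 and 177 TPM. Eef1e1, whose protein sits in the aminoacyl-tRNA synthetase complex rather than in eEF1, did not share this: it had 42.3, 27.6 and 30.7 TPM. Eef2, the translocation factor, had 281 TPM in library 1 against 719.7 and 699 TPM, a log2 ratio of −1.33.

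The part of Eef2 that was assigned to a retained-intron transcript also set library 1 apart. Eef2-202, of 651 bases, held 19.3% of the gene's TPM in library 1 against 2.74% and 2.82% in libraries 2 and 3. The coding Eef2-201 held 80.0% against 96.3% and 96.5%. By counts, which are not divided by length, Eef2-201 held 95.3% against 99.3% and 99.3%. On coding transcripts alone Eef2 had 225 TPM against 693 and 674 TPM, a log2 ratio of −1.60. Over all detected members the picture depended on the measure. Retained introns held 7.48%, 6.77% and 5.98% of the members' summed TPM in libraries 1, 2 and 3. The median share per member was 1.65%, 1.96% and 2.61%. Over detected protein-coding genes the summed share was 11.3%, 13.1% and 12.7%, and the median 1.60%, 3.47% and 3.62%, both lowest in library 1. A mean share above 10% was found in 18 members, 31.0%, and in 36.2% of detected protein-coding genes.

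The enzymes that modify elongation factors were low. Eef2k, the kinase that inactivates eEF2, missed detection with 0.92, 1.92 and 1.63 TPM on 24, 36 and 55 counts, and Eef1akmt3, a lysine methyltransferase of eEF1A, with 0.17, 0.17 and 0.33 TPM. Eef1akmt1 had 21.1, 16.3 and 12.6 TPM and was not called. The highest, Eef1akmt2, had 47.0 TPM in library 1 against 23.4 and 26.3 TPM. It was called higher, as were Eef2kmt, at 30.2 TPM against 18.5 and 20.7 TPM, and Eef1akmt4, at 5.15 TPM against 2.08 and 4.45 TPM. Eef2kmt shares windows with Alg1 and Eef1akmt4 shares 42.9% of its windows with overlapping genes, so both are uncertain.

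Which transcript led was stable for most of the members examined. Of 18 named members, 13 had the same leading transcript by TPM in each library, and in 8 it held over 50% of TPM throughout. The exceptions were Eif5, Eif4g1, Eif4g3, Eif4ebp2 and Eef2k. By share of counts, which does not divide by length, 17 of the 18 had 1 leader in every library, these 5 included, and the exception was Eif4ebp1. By TPM, in Eif5 the short coding Eif5-214 led library 1 with 31.3%, against 12.5% and 14.99%, while Eif5-212 led libraries 2 and 3. By TPM, the leader of Eif4g3 was Eif4g3-205 at 41.9% in library 1, against 36.4% and 35.4%, where Eif4g3-215 led libraries 2 and 3 with 42.8% and 37.7% and held 19.2% in library 1.

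**Figure D4:**
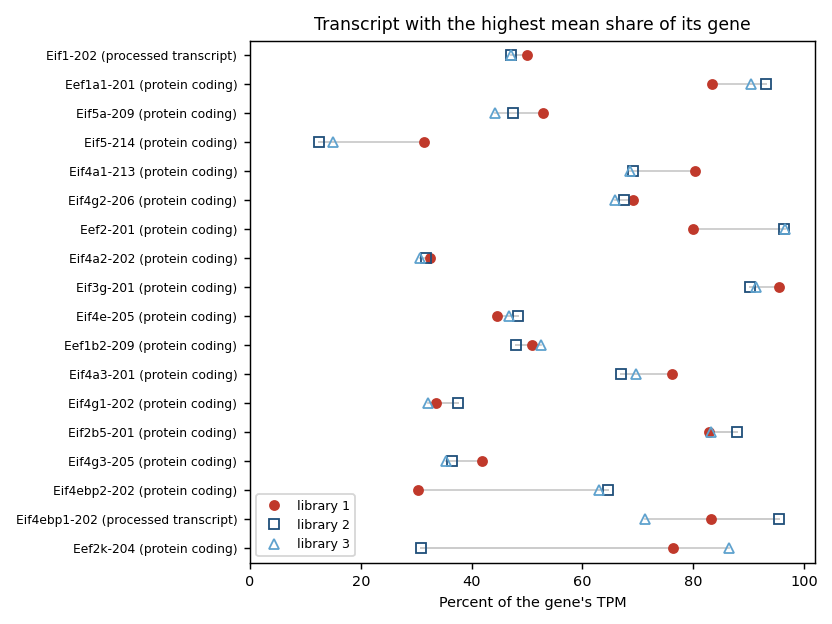
For 18 members, the share of the gene's TPM held in each library by the transcript with the highest mean share. Eif3g-201 and Eif2b5-201 lie above 80% throughout, while Eif5-214, Eif4ebp2-202 and Eef2k-204 spread widely between libraries.

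Several of the most abundant members gave other library ratios in the second gene table. That table holds whole counts on GENCODE M4 annotation and had 61 of the 62 members. For the median member with a count its total was 38.0%, 43.4% and 40.6% of the M21 counts in libraries 1, 2 and 3. For Eef1a1 it held 655, 696 and 707 counts, 4.05%, 1.23% and 0.991% of the M21 counts, and the log2 ratio of library 1 was −0.08 in place of −2.05. For Eif5a it held 808, 719 and 733 counts, with a ratio of 0.17 in place of 1.27, and for Eif5 2540, 2212 and 2213 counts, with 0.22 in place of 1.05.

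The lower level of other members in library 1 was found in both tables. Eif3f had a log2 ratio of −1.02 in the M4 table, Eif4b −1.43, Eif4g3 −1.33, Eef1b2 −0.76 and Eef2 −0.62. The higher level of Eif2b3, at 1.28, and of Eif3b, at 0.79, was found there too. Of the 31 called members with an M4 value, 18 kept the call and 30 kept the sign, Eif3j2 being the exception. In 6 members more than 50% of the windows of the leading transcript occur in other genes, namely Eif3j2, Eif4ebp3, Eif4a1, Eef1g, Eif1 and Eef1a1, and their M4 counts were at most 9.76% of the M21 counts. Eif5a, with 8.18% of windows shared, and Eif5, with 5.77%, are not among them, though their ratios moved as well. The cause was not tested.

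**Figure D5:**
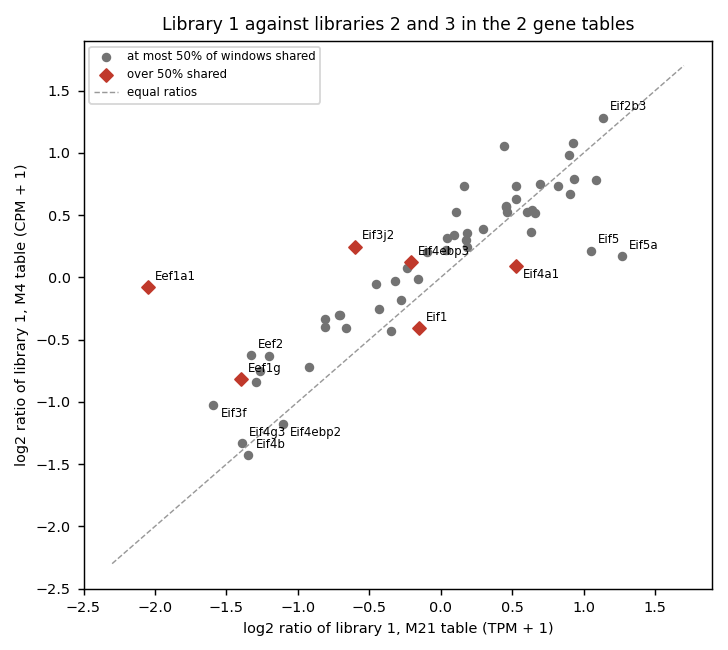
Log2 ratio of library 1 to libraries 2 and 3 in the M21 table (x, on TPM + 1) and in the M4 table (y, on counts per 1e6 counts, + 1) for each detected member present in both. Red diamonds are members with over 50% of windows shared with other genes. Eef1a1 lies far from the dashed line of equal ratios, at −2.05 and −0.08, while Eif4b and Eif4g3 lie near it.

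Other genes of the translation machinery were set beside the members. Of 44 genes for eIF2 gamma and eIF2 kinases, poly(A) binding, termination, translation control, factor modification and mitochondrial translation, 43 were detected. Of the 44, 35 passed the chi-square test, or 79.5% against 75.8% of all tested genes. In library 1 7 were called lower and 7 higher, each 16.3% of those detected, against 23.9% and 17.9% of all detected genes. Larp1, which binds TOP mRNAs and represses them, had 20.8 TPM in library 1 against 90.5 and 88.2 TPM in libraries 2 and 3. Mknk2, a kinase of eIF4E, had 41.0 TPM against 179.6 and 169 TPM. Gcn1l1, a partner of the eIF2 kinase GCN2, had 13.7 TPM against 46.4 and 43.1 TPM. Ppp1r15a, which directs the phosphatase of eIF2 alpha, had 1634 TPM in library 1 against 763 and 696 TPM, and Paip2, an inhibitor of the poly(A)-binding protein, 781 TPM against 336 and 331 TPM. The enzymes that make hypusine on eIF5A, Dhps and Dohh, were not called, with 51.6, 72.5 and 71.4 TPM for Dhps and 47.95, 37.6 and 33.0 TPM for Dohh.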

How the data were processed

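Per the file headers, the authors deposited for each library a gene and a transcript table on mm10 with GENCODE M21 annotation, and a headerless gene table of whole counts on GENCODE M4. The M21 tables hold expected counts (estimates in which reads that match several transcripts are divided, so they need not be whole), TPM, and FPKM (fragments per kilobase and 1e6 fragments), scaled by the authors within each library. In the deposited transcript tables, a percent value states how much of its gene's TPM a transcript held. The aligner, the counter, the gate and the strand setting were not given in the sources used here.

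Symbols, classes and coordinates came from GENCODE M21 on GRCm38. Rows with no annotated gene, 0.304%, 0.298% and 0.226% of expected counts in libraries 1, 2 and 3, were left out. Expected counts were rounded. Chi-square tests (scipy 1.17.1) used all genes with at least 30 counts, with Benjamini-Hochberg adjustment. They and the floor of 3 counts cover counting error only. edgeR 4.0.16 in R 4.3.3 gave TMM sizes and the common coefficient of variation (intercept only, filterByExpr), and DESeq2 1.42.0 gave size factors. With 1 group no quasi-likelihood test was run. Sequence sharing counted the 50-base windows of a member's leading transcript found in transcripts of other genes. TOP-like starts were read from RefSeq windows (GRCm38.p6), which 46 members had, and from GENCODE transcripts. The chi-square test and the common coefficient of variation were tried on simulated data, and the other steps were not. For the chi-square test the simulated counts had counting error only, without the overdispersion of these libraries. Python 3.11.15, numpy 2.4.6, pandas 2.3.3 and matplotlib 3.10.9 were used.

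Values in each library are printed for the 12 members with the highest mean TPM, the members of 12 paralogue pairs, the undetected members, the 6 lowest and 6 highest library 1 ratios among members averaging at least 5 TPM, and the highest member of each role group; further members were named after their values were seen. Leading transcripts were named for 18 members. The naming rule for members uses no measured value, but the gene family and the lists were chosen with earlier results of these data known. Gcn1l1 was matched as the RefSeq synonym of Gcn1. Alternatives were other scalings, thresholds, the M4 table and leaving out each library.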

Additional observations from a re-analysis of the deposited data

How the results depend on the processing

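The number of detected members ran from 55 to 59 under the alternatives to the main 58, the number of paralogue pairs with 1 sign in every library from 10 to 12 (by expected counts the pairs Eif4ebp1 with Eif4ebp2 and Eif4ebp2 with Eif4ebp3 kept 1 sign as well), and the number of named members with 1 leading transcript was 13 by TPM, 17 by counts and 14 to 16 with a library left out. The M4 table was not among the alternatives for the paralogue pairs, and some pairs had the other order there. By expected counts the members took 1.41% of the library, and without Eef1a1 1.31% of TPM, against 1.61%. Of the members whose counts differed, 28 passed the threshold when the statistic was divided by the overdispersion, and leaving out 1 library gave 20 to 54, with 20 when library 1 was left out. Members lower in library 1 numbered 17, against 10 at 2-fold, 11 with TMM-scaled counts, 11 with DESeq2 size factors and 10 with M4 counts; members higher numbered 15, against 4 at 2-fold, 19 with TMM, 20 with DESeq2 size factors and 12 with M4 counts, so that more members were higher than lower under these 3 scalings. The members' median log2 ratio of 0.07 became 0.27 with TMM, 0.30 with DESeq2 size factors, 0.22 with M4 counts and 0.018 with no filter on low values, and it was 0.036 against library 3 alone and 0.044 against library 2 alone; all of these stayed above 0. The ratio of Eif3j2 became 0.25 with M4 counts, from −0.60. The common coefficient of variation ran from 0.0724 to 0.410 with 1 library left out. The comparisons with 1 other library alone and the agreement with 1 library left out were chosen after seeing the data. For changes of scale the cause was not tested. No paired analysis was possible because the samples form 1 group with no contrast. One mouse and 1 biosample limit every SD to spread between libraries, and members with few counts, such as Eif4ebp1 with 114, 49 and 48, Eif4ebp3 with 44, 41 and 53 and Eef1akmt4 with 60, 21 and 50, are the least precise.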
